A study of Homo sapiens with 2 samples.

Results

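The regions described here are domain boundaries of HepG2 cells given fatty acids that stood more than 200 kb from every boundary of mock-treated cells. HepG2 is an established human liver cancer cell line. They numbered 242 of the 1688 boundaries listed for the fatty acid library on 13 chromosomes (1, 2, 4, 6, 7, 8, 9, 11, 12, 16, 17, 19 and 20), or 14.3% as the percentage called by the rule, with a Wilson 95% interval of 12.7 to 16.1%. A boundary was a start or end in a list of topologically associating domains, with positions 40 kb or less apart merged, and 241 of the 242 were a single position. They were chosen by this measured distance, so distances and the sizes of the mock domains around them are descriptions. Below, a new boundary means one listed for the PA+OA library under this rule. The whole list held 2396 boundaries on 23 chromosomes.

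Hi-C reads out which stretches of chromatin touch by joining and sequencing neighbouring DNA ends, and each group had 1 library. Cells of the PA+OA group spent 48 h in DMEM with 1% fatty acid-free BSA, palmitic acid at 120 µM and oleic acid at 240 µM. The mock group had DMSO at 1 part in 1000. The labels leave unclear whether its medium held BSA and whether the PA+OA medium held DMSO. The effects of BSA, DMSO and the fatty acids therefore cannot be told apart. There were no replicates, so no test of the treatment was possible and intervals cover counting error over boundaries only. The lists hold positions alone, on hg38, in steps of 40 kb. The depth of the libraries is unknown, and the identity of the cells cannot be checked against marker genes in a list of positions.

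Topologically associating domains are chromosome segments within which contacts are frequent and across whose edges they are rarer. Their edges often form where the architectural protein CTCF halts cohesin, the ring complex that extrudes chromatin loops, and at active promoters. Enhancers tend to act within their own domain, so an edge between an enhancer and a promoter can matter for the gene.

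The reference sequences around the starts of genes within 1 bin of such boundaries are shown for the boundaries farthest from any mock boundary. They come from the RefSeq promoter table of GRCh38.p14, run from 250 bases before to 50 after a gene's start, and are 5′ to 3′ on the gene's own strand. The first 2 genes run in opposite directions from a shared start region 11.96 kb and 12.2 kb from the boundary at 32960000 on chromosome 19. CEP89 encodes a centrosomal protein and FAAP24 a component of the Fanconi anaemia DNA repair complex. AMBP, which encodes a plasma protein precursor made in the liver, starts 1.70 kb from the boundary at 114080000 on chromosome 9, and KIF12, a kinesin gene, starts 19.1 kb from it. On chromosomes 9 and 19 the mock list had few boundaries for their length, as given below. PDE4B, a cyclic AMP phosphodiesterase gene, was added after its sequence had been searched, because it holds the motif given in capitals. This window belongs to a start inside the long gene record, 32.7 kb from the boundary at 65960000 on chromosome 1, which the record also holds.
CEP89, chr19:32971909-32972208, minus strand: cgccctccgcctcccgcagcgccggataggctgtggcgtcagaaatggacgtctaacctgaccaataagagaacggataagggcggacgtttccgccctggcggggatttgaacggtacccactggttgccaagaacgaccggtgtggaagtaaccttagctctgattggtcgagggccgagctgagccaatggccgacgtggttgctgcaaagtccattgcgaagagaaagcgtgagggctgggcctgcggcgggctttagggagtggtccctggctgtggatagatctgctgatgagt
FAAP24, chr19:32971992-32972291, plus strand: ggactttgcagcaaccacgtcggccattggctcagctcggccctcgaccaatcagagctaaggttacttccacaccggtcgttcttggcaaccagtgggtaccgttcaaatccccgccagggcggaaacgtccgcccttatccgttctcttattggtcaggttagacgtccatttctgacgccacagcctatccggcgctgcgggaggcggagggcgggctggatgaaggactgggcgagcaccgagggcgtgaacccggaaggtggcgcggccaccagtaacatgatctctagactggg
AMBP, chr9:114078251-114078550, minus strand: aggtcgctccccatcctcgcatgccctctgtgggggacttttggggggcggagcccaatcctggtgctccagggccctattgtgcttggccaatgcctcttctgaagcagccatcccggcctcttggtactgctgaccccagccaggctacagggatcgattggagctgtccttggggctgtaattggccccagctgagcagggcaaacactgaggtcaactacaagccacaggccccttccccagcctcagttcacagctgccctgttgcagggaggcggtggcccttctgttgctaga
KIF12, chr9:114099017-114099316, minus strand: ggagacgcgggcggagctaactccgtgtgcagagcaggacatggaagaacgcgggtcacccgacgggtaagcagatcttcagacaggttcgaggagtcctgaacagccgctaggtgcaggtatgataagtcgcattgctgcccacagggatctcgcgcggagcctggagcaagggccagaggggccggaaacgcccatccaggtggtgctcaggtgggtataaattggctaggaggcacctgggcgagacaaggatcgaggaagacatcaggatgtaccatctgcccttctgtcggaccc
PDE4B, chr1:65992485-65992784, plus strand: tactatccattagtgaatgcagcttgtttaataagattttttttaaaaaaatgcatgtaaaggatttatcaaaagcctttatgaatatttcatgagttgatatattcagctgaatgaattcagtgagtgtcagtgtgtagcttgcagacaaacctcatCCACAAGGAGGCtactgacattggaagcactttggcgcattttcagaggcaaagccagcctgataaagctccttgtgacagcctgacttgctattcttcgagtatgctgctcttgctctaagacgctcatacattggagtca

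The capitals in PDE4B mark a match to a core form of the CTCF motif, which was searched on both strands. It stood in 4 of 217 promoter windows of coding genes within 40 kb of these boundaries, or 1.84% (interval 0.719 to 4.64%). Among all 14735 such windows used, 2.64% held it. Near PA+OA boundaries matched within 40 kb by a mock boundary the share was 3.06% of 1341. The AMBP window held 6 CpG pairs and the CEP89 window 23, against a median of 21 over all windows. The windows are 300 bases and the boundary bins 40 kb, so these counts cover only a small stretch of each bin and not CTCF sites elsewhere in it. The interval of 0.719 to 4.64% takes windows as independent, but some overlap, as those of CEP89 and FAAP24 do.

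On these 13 chromosomes, the same rule with the lists exchanged gave about as many boundaries. Of 1691 mock boundaries, 256 stood more than 200 kb from every PA+OA boundary, a called percentage of 15.1% (interval 13.5 to 16.9%). In either list 1272 boundaries had a partner within 40 kb. A further 174 PA+OA boundaries lay 80 to 200 kb from a mock boundary. The intervals of the 2 shares overlapped. The 13 chromosomes are set by the rule and had near-equal totals in the 2 lists, so near-equal numbers are partly built in. On the other 10 chromosomes, which the rule leaves out, the lists held 708 PA+OA and 828 mock boundaries. The far numbers there were unequal, with 120 PA+OA boundaries against 252 mock boundaries that far from the other list.

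The distances were also of like size. The median distance of the 242 PA+OA boundaries to the mock list was 600 kb, with quartiles at 400 and 960 kb, and that of the 256 mock boundaries to the PA+OA list was 560 kb with the same quartiles. In the PA+OA list 68 lay up to 400 kb away, 65 up to 600 kb, 53 up to 1000 kb, 40 up to 2000 kb and 16 farther. The farthest was 6920 kb from a mock boundary, and the farthest mock boundary was 7400 kb from a PA+OA boundary. The 6920 kb was on chromosome 19, where the mock list had 20 boundaries over 58.24 Mb. On chromosome 9 the mock list had 37 over 137.92 Mb, against 137 over 132.08 Mb on chromosome 12. Fewer boundaries leave room for larger distances, and whether the sparse lists come from the calling was not tested. At the threshold, 22 PA+OA boundaries lay 240 kb away and counted, and 21 lay 200 kb away and did not. The first of each by chromosome are given. Inside it were 1 next to TMEM52 at 1920000, 1 at 123200000 without genes nearby and 1 in URB2 at 229640000, all on chromosome 1. Outside it were 1 in IGFBP5 at 216680000 on chromosome 2, 1 near CPZ at 8640000 on chromosome 4 and 1 at 59360000 on chromosome 6.

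**Figure D1:**
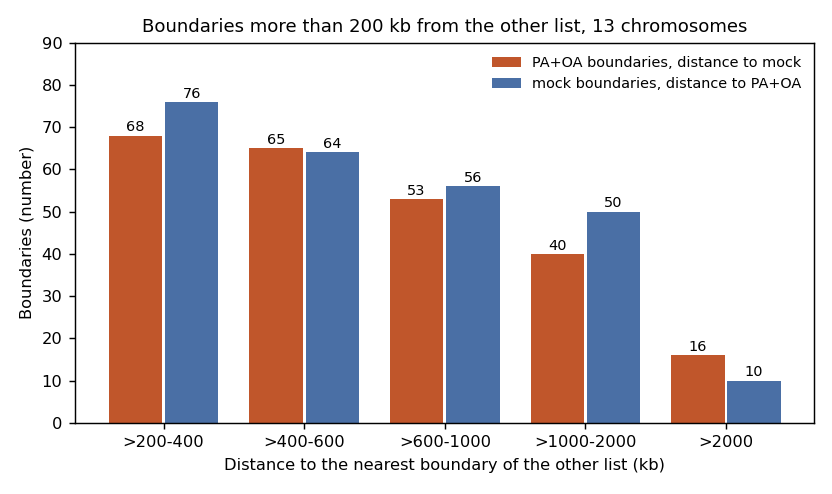
Numbers of boundaries by distance to the nearest boundary of the other list in kb, for the 242 PA+OA boundaries far from any mock boundary (orange) and the 256 mock boundaries far from any PA+OA boundary (blue). Between 400 and 600 kb the lists have 65 and 64 boundaries, and beyond 2000 kb 16 and 10.

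The regions were spread over all 13 chromosomes. Chromosome 4 held the most, 36 of its 155 PA+OA boundaries (23.2%, interval 17.3 to 30.5%), and 41 of its 161 mock boundaries were as far from the PA+OA list. Chromosome 2 held 31, chromosome 6 held 30, chromosome 1 held 28 and chromosome 8 held 26. Chromosome 11 had the lowest share, 12 of 181 boundaries (6.63%, interval 3.83 to 11.2%), and its mock share was 8.43%. Chromosome 19 had the highest share, 28% of only 25 boundaries, with an interval of 14.3 to 47.6%. Its mock list had 3 such boundaries of 20. On chromosome 7 the PA+OA list had 14 and the mock list 22. The intervals of the 2 lists overlapped on each of the 13 chromosomes.

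**Figure D2:**
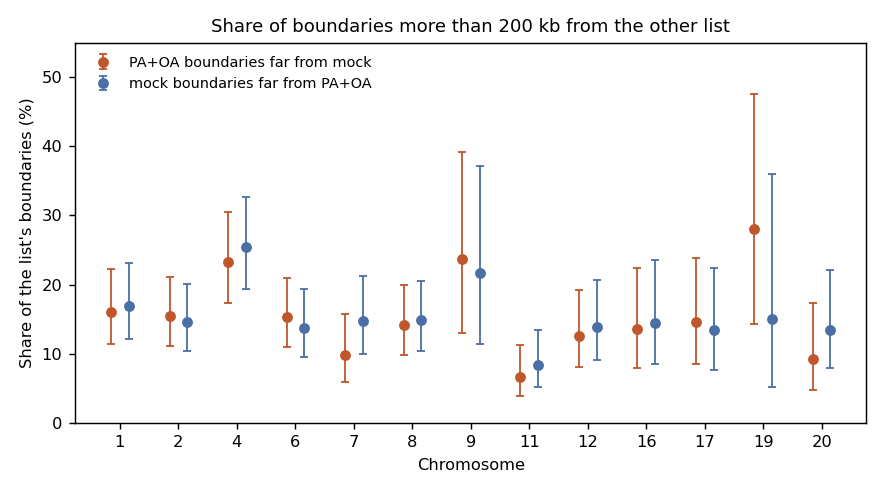
Share of each list's boundaries more than 200 kb from the other list, in %, by chromosome, with Wilson 95% intervals, PA+OA in orange and mock in blue. Chromosomes 4 and 9 are high in both lists, chromosome 19 is high for PA+OA, and chromosome 11 is low in both. Chromosome 9 rests on 38 PA+OA and 37 mock boundaries. The intervals of the lists overlap on every chromosome shown.

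Of the 242 new boundaries, 127 fell inside a mock domain whose outer edges the PA+OA list also had. The mock domains that held the 242 boundaries numbered 193, with a median size of 2140 kb per boundary, and a domain had to exceed 400 kb to hold one at all. The PA+OA list had boundaries within 40 kb of both edges of the mock domain for 52.5% of the new boundaries (interval 46.2 to 58.7%), at 1 edge for 89 and at neither for 26. In 76 cases a single new boundary cut a mock domain with both edges matched into 2. The mirrored mock boundaries gave 80 such cuts, and 135 of 256 lay in PA+OA domains with both edges matched.

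The domains cut in this way had a median of 1740 kb and 12 coding genes. The smaller piece had a median of 520 kb and the larger one 1160 kb. In 69 of the 76 domains coding genes lay on both sides of the new boundary, and in 7 they lay on one side only. Of the 1220 coding genes in these domains, 350 were on the side with fewer genes. The smaller of 2 sides is lower by construction, so these sizes and counts are descriptions.

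Long mock domains held a share of the regions close to their share of length, but few for the positions where one could stand. Mock domains over 3 Mb held 75 of the 242 (31.0%, interval 25.5 to 37.1%) and made up 30.5% of the mock domain length. These domains offered 43.8% of the positions that lie more than 200 kb from a mock boundary. Stretches where reads cannot be placed were not left out of these positions. Per 10 Mb of length more than 200 kb from a mock boundary, domains of up to 1000 kb had 2.09 new boundaries. Those of up to 2000 kb had 2.63, up to 3000 kb 2.51, up to 5000 kb 1.95 and longer ones 1.11. Of the 37 mock domains over 5000 kb, 23 held at least 1.

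Some new boundaries shared a mock domain. A mock domain held 1 of them in 153 cases, 2 in 32, 3 in 7 and 4 in 1, so that 89 of the 242 (36.8%) shared their mock domain with another. The corresponding share in the mock list was 37.5%. The domain with 4 ran from 111040001 to 113920000 on chromosome 4, with boundaries at 111600000, 111720000, 112760000 and 113360000. The last 2 lay inside ANK2, which encodes ankyrin-B, an adaptor between membrane proteins and the cytoskeleton. Of the domains with 3, the longest ran from 24040001 to 39880000 on chromosome 19, with CEP89, the sulfotransferase gene CHST8 and SCGB2B2 at boundaries 6920, 6120 and 5280 kb from the mock list. Others ran from 27320001 to 40480000 on chromosome 9, from 78920001 to 85480000 on chromosome 12 and from 88080001 to 93240000 on chromosome 4. The PA+OA domains that touched a new boundary, 427 in all, had a median of 840 kb (interval 720 to 920 kb). Those at matched boundaries had 640 kb and those at boundaries 80 to 200 kb from a mock boundary 440 kb. Mock domains that touched a mirrored mock boundary had a median of 840 kb as well (720 to 960 kb). The distance of more than 200 kb in the rule partly fixes these sizes.

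Among the genes of nuclear receptors and lipid regulators, 1 of 17, PPARGC1A on chromosome 4, lay within 50 kb of a new boundary. Over all 13902 coding genes of the 13 chromosomes, 339 did, a called percentage of 2.44%, so 1 of 17 is no result about the list. PPARGC1A encodes PGC-1α, a coactivator of mitochondrial biogenesis, fatty acid oxidation and liver glucose production. In the mock list it lay in a domain from 23200001 to 25160000 with 6 coding genes. In the PA+OA list boundaries appeared at 23760000 and 24480000, which were 560 and 680 kb from the nearest mock boundary. They enclosed a domain of 720 kb around the gene's record from 23792021 to 24472905, 681 kb long. The record began 32.0 kb after the first boundary and ended 7.10 kb before the second, both less than 1 bin. The mock edge at 25160000 was matched in the PA+OA list and the one at the start of the domain was not, so that the PA+OA domain before PPARGC1A measured 3640 kb.

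Of the genes of triglyceride and phospholipid synthesis, 2 of 20 on these chromosomes lay within 50 kb of a new boundary. The called percentage over all coding genes was 2.44% for new boundaries and 2.17% (301 genes) for the mirrored mock boundaries. AGPAT1, which encodes an enzyme that acylates lysophosphatidic acid on the way to triglycerides, lay 21.9 kb from the boundary at 32200000 on chromosome 6. LPIN3, a phosphatidate phosphatase gene, lay 39.4 kb from the boundary at 41400000 on chromosome 20, where CHD6, which encodes a chromatin remodeller, was nearer. That boundary was 1280 kb from the mock list and cut a mock domain of 4080 kb, from 40120001 to 44200000, into 1280 and 2800 kb. No gene within 50 kb came from the lists for bile acids (16 genes), lipoproteins (25), cholesterol (20), uptake of fatty acids (21), their oxidation (22) or synthesis (17), or lipid droplets (15). At the percentage over all genes, lists of that size hold less than 1 gene each.

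Liver secreted proteins had 2 of 25 genes near a new boundary. Besides AMBP, whose boundary cut a mock domain from 109880001 to 122360000 with 78 coding genes into 40 and 38, this was HP. HP encodes haptoglobin, the plasma protein that binds free haemoglobin, and lay 18.9 kb from the boundary at 72080000 on chromosome 16. The same mock domain, from 71640001 to 74680000, held a second new boundary at 72840000 inside ZFHX3, which encodes a large zinc finger homeobox transcription factor. HP and HPR then lay in a PA+OA domain of 440 kb that ended at the first boundary, and 760 kb separated the 2 new boundaries. No hepatocyte transcription factor gene of 13 and no liver cancer gene of 24 lay within 50 kb of one. The enzyme gene PDK1 on chromosome 2, whose kinase restrains pyruvate dehydrogenase, held one at 172600000 inside its record, as 1 of 16 genes of glucose metabolism. The interval of that share, 1.11 to 28.3%, also holds 2.44%. The lists for endoplasmic reticulum stress, oxidative stress, autophagy, chromatin architecture and housekeeping, of 17 genes each, had 0 genes that near.

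The class III region of the major histocompatibility complex on chromosome 6 held 2 new boundaries in 1 mock domain. That domain ran from 31120001 to 32880000, with both edges matched in the PA+OA list, and held 82 coding genes. The boundary at 31600000 lay among TNF, LTA and LTB, which encode inflammatory cytokines, and NCR3, AIF1, LST1, NFKBIL1, BAG6 and PRRC2A, and 59 coding genes lay within 500 kb of it, the most of any. TNF was the 1 of 26 genes of the inflammation list within 50 kb of a new boundary. Over all coding genes 2.44% were that near, so 1 of 26 is no result about the list. TNF ended 21.7 kb before the boundary at 31600000. By gene middles, 18 of the 82 genes lay before this boundary. The boundary at 32200000 lay inside NOTCH4, near AGER and AGPAT1, with 67 genes before it. The domain of 1760 kb was thus listed as 480, 600 and 680 kb.

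Other boundaries with many coding genes around them are given next. The histone case was named after the values were seen. A boundary at 27800000 on chromosome 6, 600 kb from the mock list, stood among replication-dependent histone genes, which package newly made DNA. H2BC13, H2AC13, H3C10, H2AC14, H2BC14, H4C11, H4C12, H2AC15 and H2BC15 lay 7.48 to 38.6 kb beyond it, so that the 9 of 70 histone genes within 50 kb come from 1 boundary. Over all coding genes 2.44% were that near, but these neighbouring genes do not count separately. By position, 1 of the 242 new boundaries (0.413%) lay near a histone gene. The boundary at 27800000 cut a mock domain from 27160001 to 28400000 with 34 coding genes into 5 and 29. The boundary at 42160000 on chromosome 17 lay inside the potassium channel gene KCNH4, 1800 kb from any mock boundary. RAB5C, KAT2A, STAT5B, HCRT, DHX58, GHDC and HSPB9 were within 50 kb of it. STAT5B encodes a transcription factor of growth hormone signalling in liver and KAT2A a histone acetyltransferase. It stood in a mock domain from 40360001 to 44040000 with 144 coding genes, 88 before and 56 after. On chromosome 16 a boundary at 1800000 lay 5.09 kb from IGFALS, whose liver-made product carries insulin-like growth factors in plasma, with 55 coding genes within 500 kb. On chromosome 1, a boundary at 153320000 lay between PGLYRP3 on one side and PGLYRP4 and S100A9 on the other, all genes of innate immunity, and cut a mock domain of 64 coding genes into 35 and 29. On chromosome 19, 1 at 54240000 lay inside LILRA6, a leukocyte receptor gene.

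**Figure D3:**
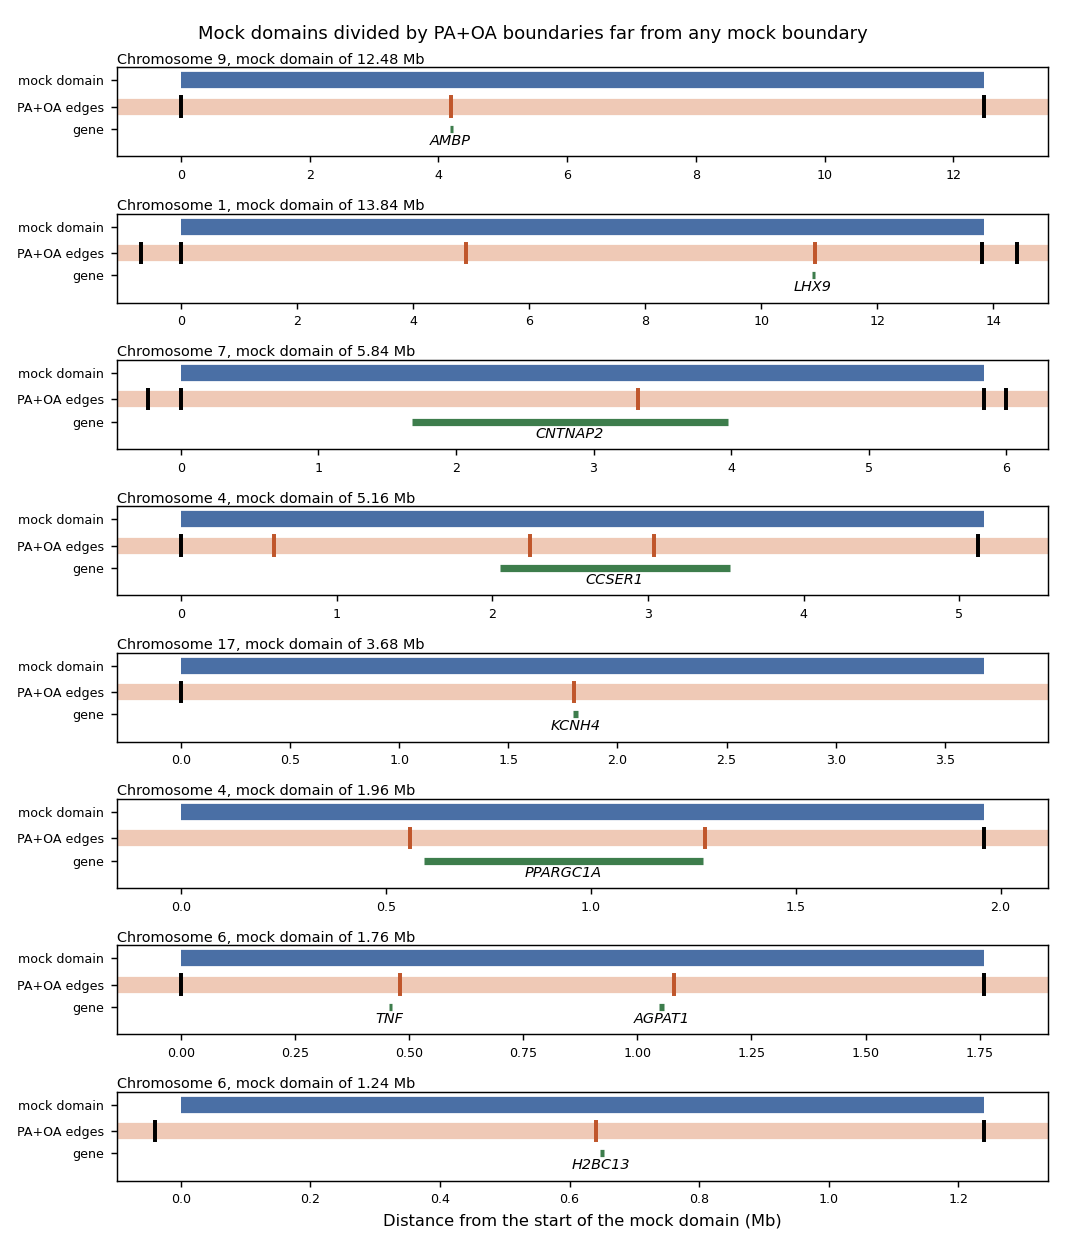
Maps to scale of 8 mock domains (blue bars) with the edges of the PA+OA list below them, orange ticks for edges more than 200 kb from any mock boundary and black ticks for other PA+OA edges, and genes in green, against distance from the start of the mock domain in Mb. The orange ticks enclose PPARGC1A in a domain of 720 kb and divide the domain with TNF and AGPAT1 into 480, 600 and 680 kb.

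Some new boundaries lay inside very long genes. The longest coding genes whose record held one included CNTNAP2 (2304 kb), DLG2 (2173 kb), CCSER1 (1478 kb), CTNNA2 (1463 kb), GALNT13 (1388 kb), TENM3 (1355 kb), LRRC4C (1345 kb), SGCZ (1154 kb) and DPP6 (1146 kb). CNTNAP2 and LRRC4C encode neuronal adhesion proteins and DLG2 a synaptic scaffold. The boundary in CNTNAP2, at 147760000 on chromosome 7, was 2520 kb from the mock list and cut a mock domain from 144440001 to 150280000, with 20 coding genes, into 3320 and 2520 kb. CCSER1 on chromosome 4 held 2, at 90320000 and 91120000, which were 2240 and 2120 kb from any mock boundary and marked off 800 kb within the gene. The boundary in DLG2 at 84920000 on chromosome 11 was 1080 kb from the mock list.

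The share inside long genes was close to that of the positions where such a boundary could stand. Coding gene records over 500 kb held 23 of the 242 boundaries (9.50%, interval 6.42 to 13.9%) and 10.1% of all 29863 positions, in steps of 40 kb, more than 200 kb from every mock boundary. By distance alone, those positions are where such a boundary could stand, and they made up 64.5% of the 46306 positions of the 13 chromosomes. Of the 27 genes of neuronal adhesion and axon guidance, 6 lay within 50 kb of a new boundary, namely CTNNA2, UNC5C, TENM3, CNTNAP2, LRRC4C and DLG2, all with the boundary inside the record. By position, 2.48% of the new boundaries and 2.39% of the possible positions lay within 50 kb of a gene of this list. Only 1 of the 256 mock boundaries far from the PA+OA list did (0.391%). No test of that difference was possible.

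The other regions farthest from the mock list lay at varied distances from coding genes. On chromosome 1 they were at 191960000, 198 kb from RGS18 and 4920 kb from a mock boundary, and at 197960000, 24.5 kb from the LIM homeobox gene LHX9 and 2920 kb from one. Chromosome 2 had a boundary at 5200000, 492 kb from SOX11 and 3640 kb from the mock list, and another at 33920000, 321 kb from FAM98A and 2480 kb from the list. The boundary in CTNNA2, which encodes a neuronal catenin, was at 79920000 and 3920 kb away. On chromosome 19 a boundary at 9960000 inside the collagen gene COL5A3 was 3040 kb away. On chromosome 6 the farthest was at 78240000, 313 kb from MEI4. Others on chromosome 4 were at 45440000, 596 kb from the GABA receptor gene GABRG1, and at 125280000, 34.96 kb from FAT4, an atypical cadherin gene. The farthest of the other chromosomes were at 98360000 on chromosome 11, 661 kb from CNTN5, at 80760000 on chromosome 12, 32.5 kb from LIN7A, and at 63680000 on chromosome 8, 467 kb from YTHDF3. On chromosome 12 the muscle factor gene MYF5 was within 50 kb as well.

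By most of the measures compared, these regions lay near fewer genes than shared boundaries did. A coding gene was within 50 kb of 161 of the 242 (66.5%, interval 60.4 to 72.2%), against 1045 of the 1272 matched PA+OA boundaries (82.2%, 79.95 to 84.2%). A coding gene record held 37.2% of the former and 50.9% of the latter. The median number of coding genes within 500 kb was 4.5 (interval of the median 4 to 6) against 8 (7 to 8). A coding gene started within 40 kb of 42.6% of 216 and of 53.4% of 1136, both without chromosome 8, for which no gene starts were used. The intervals of these measures did not overlap. The share with 15 or more coding genes within 500 kb was 19.8% (15.3 to 25.3%) against 20.5% of matched boundaries (18.4 to 22.8%), with overlapping intervals. The mirrored mock boundaries had 59.4% near a coding gene (53.3 to 65.2%) and a median of 4 genes within 500 kb. PA+OA boundaries 80 to 200 kb from a mock boundary had 57.5% near a coding gene and 38.5% inside a record. Their median was 4.5 genes and 25.3% had 15 or more, so the lower gene content was not particular to boundaries beyond 200 kb.

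Set beside the positions where they could stand, the new boundaries narrowly differed in some measures of gene content. Of the 29863 positions, 60.0% had a coding gene within 50 kb, which is just below the interval of the new boundaries, and 13.5% had 15 or more within 500 kb, against 48 of 242 boundaries (19.8%, interval 15.3 to 25.3%). No coding gene was within 500 kb of 9.50% of them (6.42 to 13.9%) and of 14.2% of the positions. Being inside a coding gene record was not more frequent, with 37.2% against 41.5%. The mirrored mock boundaries were at 59.4% against 59.5% of their own possible positions, and at 13.7% against 12.9% for 15 or more genes. Over all 46306 positions, 64.3% had a coding gene within 50 kb and 11.4% had none within 500 kb, both inside the intervals of the new boundaries. For 15 or more genes the share was 15.1%, just below the interval. Centromeres and stretches where reads cannot be placed were not annotated here, so they were not left out of the positions. Neighbouring boundaries are not independent, and whether the lists differ in this was not tested.

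**Figure D4:**
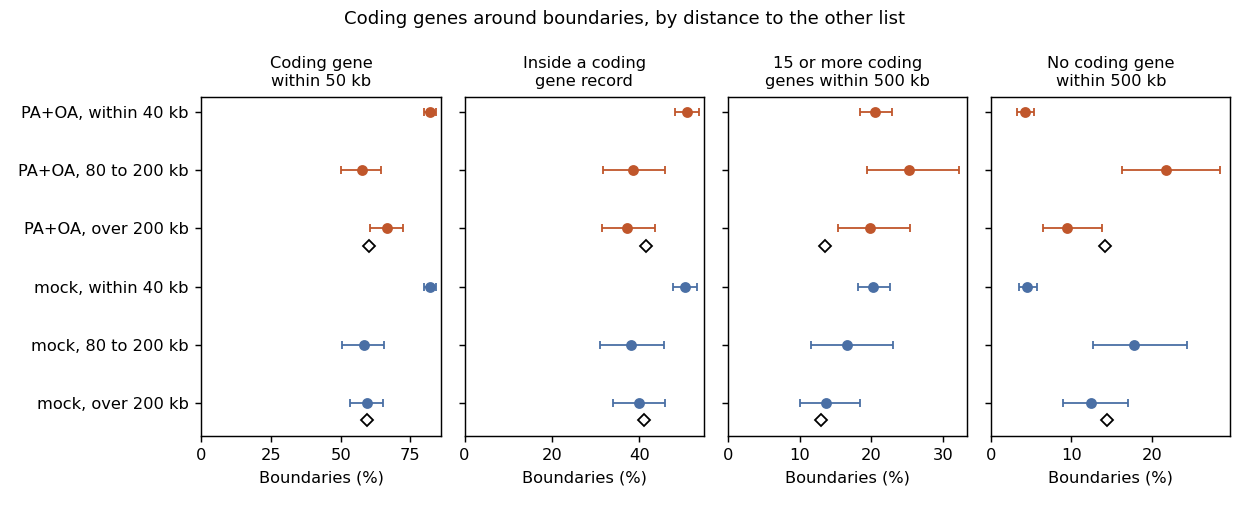
Share of boundaries in % with coding genes around them, for PA+OA (orange) and mock (blue) boundaries within 40 kb, 80 to 200 kb and over 200 kb from the other list, as points with Wilson 95% intervals, and for all positions where a far boundary could stand (open diamonds). Far boundaries of both lists lie near a coding gene less often than matched ones, and for PA+OA the diamond lies left of the far boundaries for a coding gene within 50 kb and for 15 or more genes, and right of them for the other panels.

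Genes stood on one side only more often at new than at matched boundaries. Coding genes lay within 500 kb on one side only at 71 of the 242 (29.3%, interval 24.0 to 35.4%), against 14.5% of matched PA+OA boundaries (12.7 to 16.6%) and 24.5% of the possible positions, a value inside the interval of the new boundaries. The mirrored mock boundaries were at 25.8%. An lncRNA gene was within 50 kb of 55.4% of the new and 58.0% of the matched boundaries, and a miRNA gene near 4.96% and 7.63%, with overlapping intervals. Transfer RNA genes were within 50 kb of 4 new boundaries (1.65%), against 1.18% of matched and 1.95% of mirrored mock boundaries, with overlapping intervals. Among the 4 was the boundary at 28800000 on chromosome 6, 103 kb from TRIM27, with 12 such genes.

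Mock domains that held a new boundary contained 3498 of the 13902 coding genes by their middles, a called percentage of 25.2%. For hepatocyte secreted proteins the count was 13 of 25, for neuronal adhesion 14 of 27, for chemokine ligands 20 of 39 and for keratins 28 of 55. These were the highest shares among 20 lists and 20 families, and the next, housekeeping, had 6 of 17. The mirrored mock count is not given here, and no difference was tested. Chemokine and keratin genes lie in clusters, so neighbouring genes were counted together. For genes of fatty acid oxidation it was 3 of 22 and for lipid droplets 0 of 15. Among families, collagen genes had 4 of 30 within 50 kb of a new boundary (COL19A1, COL9A1, COL5A3 and COL8A2, of which the first 2 share 1 boundary), where 2.44% of all coding genes were that near. By position, 3 of the 242 new boundaries (1.24%), 0.332% of the possible positions and 2 of the 256 mirrored mock boundaries lay within 50 kb of a collagen gene. Zinc finger genes had 6 of 432, and solute carriers 2 of 238. The HOX clusters, with 40 genes, and cytochrome P450 genes, with 41, had none.

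**Figure D5:**
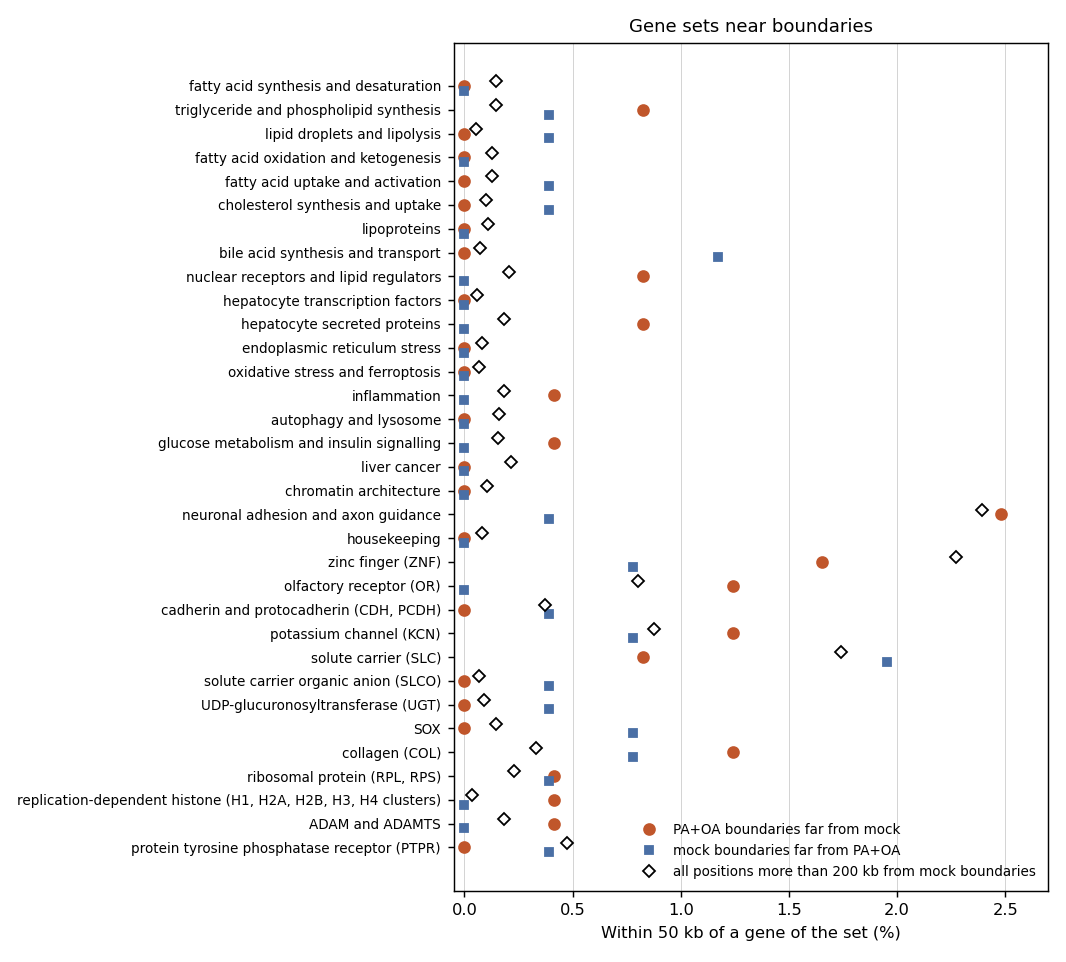
Share of boundaries or positions in % within 50 kb of a gene of each set, for the 242 PA+OA boundaries (orange circles), the 256 mirrored mock boundaries (blue squares) and all positions more than 200 kb from mock boundaries (open diamonds). Most sets have 0 to 2 of the 242 boundaries, and neuronal adhesion genes have 6, or 2.48%, beside a diamond at 2.39%.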

How the data were processed

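Each library's deposited file lists domains by chromosome, start and end in base pairs. The authors used FastQC and HiC-Pro on hg38, per the submitters' processing notes. Versions, domain caller, matrix normalization and depth were not given in the sources used here. Depth and caller settings therefore cannot be told apart from treatment. Domains followed each other without gaps, and entries of zero length (82 in the PA+OA and 100 in the mock list, on these chromosomes) were kept.

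Starts and ends were pooled, positions 40 kb or less apart merged, and distances taken between intervals (Python 3.11.15, pandas 2.3.3, scipy 1.17.1). The rule was checked on simulated lists. Genes came from the RefSeq table of GRCh38.p14, placed by their records; all 566 symbols of the 20 lists were found. Exons and introns were not annotated here. Named regions were the farthest per chromosome and of all, the gene-richest, those sharing a domain, and list genes within 50 kb. Sequences were to come from gene starts inside an interval, which for single positions was widened to 1 bin. Members, lists and rules were chosen with earlier results of these data known. Percentages have Wilson intervals and medians intervals from binomial ranks. Promoters on chromosome 8 were not used. One of the longest genes is not reported here.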

Additional observations from a re-analysis of the deposited data

Results flagged for a closer look

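Chromosome 3 is not among the 13 chromosomes of the rule, and the same count there was higher in the PA+OA list than in the mock list. It had 62 PA+OA boundaries more than 200 kb from every mock boundary, of 223 (27.8%), and 15 mock boundaries that far from the PA+OA list, of 164 (9.15%). On the other 9 chromosomes outside the rule the mock list had more, for example 37 against 0 on chromosome 18.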

How the results depend on the processing

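Of 155 values recomputed with other settings, 143 stayed within the interval of the main value or, for counts, within 1.5 times of it. Members beyond 100 kb numbered 364, or 21.6% of boundaries, with 23.6% in mock domains over 3 Mb and a median neighbouring domain of 680 kb. With members beyond 400 kb these values were 10.3% of boundaries, 41.4% and 1000 kb, and the 174 members were fewer by construction. The share near a coding gene was 58.7% with a window of 25 kb and 46.3% by gene middles. The median gene count was 2.5 within 250 kb and 9 within 1 Mb. Mock domains over 2 Mb held 52.1%. Leaving out each chromosome, chromosomes 9 and 19 together, zero-length entries, short domains or chromosome ends, and other merging, moved no value out of that range. No paired analysis was possible because each group has 1 library, and no replicate could be left out. Without a known depth, no error can be put on any one boundary.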

Other observations

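Of the 242 boundaries, 23 had no coding gene within 500 kb and 5 had no gene record of any kind there. These 5 were at 122320000 and 123200000 on chromosome 1, 59160000 on chromosome 6, 38320000 on chromosome 16 and 26760000 on chromosome 20. All lay 240 to 480 kb from a mock boundary. Centromeres were not annotated here, nor how well reads can be placed, so how reliably boundaries can be called at these positions is unknown.

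The following were named after their values were seen. On chromosome 8 a boundary at 128880000 fell in a mock domain from 127760001 to 129760000 whose edges were both matched, 880 kb from the mock list. GSDMC was the nearest coding gene, 825 kb away. On chromosome 4 a boundary at 99120000 lay 3.66 kb from the alcohol dehydrogenase gene ADH4, 240 kb from the mock list and so just inside the threshold.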
